A study of Mus musculus with 23 samples.

Results

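RNA of the small intestine was compared between the libraries of A10-FMT coded I1 (set 1) and those coded I2 (set 2), 3 against 3 and 6 of the 23 libraries of the series. Members were taken by the code in the sample name alone. All mice were of the ICR strain and male, and had received busulfan (40 mg/kg), a chemotherapeutic that injures the intestinal mucosa, at 3 weeks of age. They were then gavaged with saline (Sa) or with fecal microbiota (FMT). The donors were ICR males dosed for 3 weeks with water (Con-FMT) or with alginate oligosaccharide (AOS) at 10 mg/kg (A10-FMT) or 100 mg/kg (A100-FMT). The luminal contents of each donor group were pooled, and whether both sets received the same pool is not given in the sources used here. What I1 and I2 stand for is not given in the sources used here, and the durations in the study's methods are not tied to a code. The set and any batch, age or duration that goes with it therefore cannot be told apart. The labels name the tissue only as intestine. P-values rest on the spread between libraries within the groups of the fit, which also holds Con-FMT and A100-FMT.

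The epithelium of the small intestine is renewed from the base of the crypts. Stem cells there give rise to dividing progenitors, and their descendants stop dividing as they move up the villus. Most become absorptive enterocytes, whose brush border carries the hydrolases and transporters that take up peptides, sugars and fat. The others become goblet, Paneth, enteroendocrine or tuft cells. Cytotoxic drugs such as busulfan injure this renewal.

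Levels were deposited as FPKM, the fragments of a gene relative to the length of its transcript and to all mapped fragments of the library. Differences are set 2 minus set 1 on the log2(FPKM + 1) scale, which understates those of low genes. They were tested with limma in a fit of the 18 FMT libraries with Benjamini-Hochberg adjustment over the genes whose mean reached 1 FPKM, and "called" means an adjusted p under 0.05. The depth of the libraries is unknown. The FPKM of a library summed to 569522 to 612482 in A10-FMT, and 15880 to 16261 entries were above 0. The epithelial marker Epcam was at 944 to 1006 FPKM in the 6 libraries, the intestinal cadherin Cdh17 at 441 to 562 and the Paneth cell defensin Defa24 at 4745 to 7610, as in small intestine. The 3 libraries of A10-FMT set 1 stood apart from the rest. On the first principal component of the 18 FMT libraries, which held 22.9% of the variance, they lay at -21.8, -23.1 and -23.92. A10-FMT set 2 lay at 20.19, 17.52 and 6.56, and the 12 libraries of Con-FMT and A100-FMT lay between -11.42 and 13.57.

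**Figure D1:**
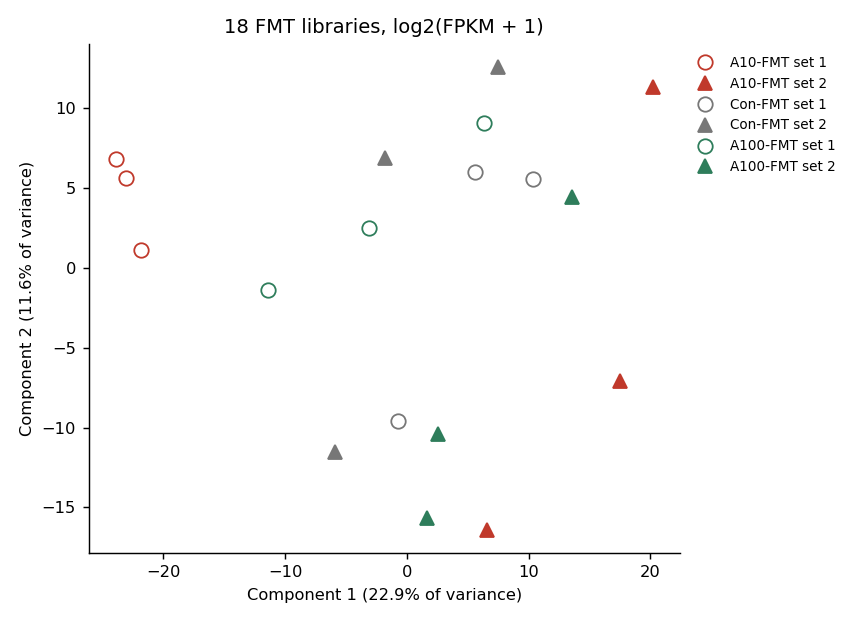
First (x) and second (y) principal components of the 18 FMT libraries, in percent of variance on the axes, with 1 point per library and a color and symbol per group and set. The A10-FMT libraries of set 1 lie to the left of all the others, at -21.8 to -23.92, and A10-FMT set 2 lies between 6.56 and 20.19.

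In A10-FMT set 2, genes of absorptive enterocytes were lower than in set 1 and genes of dividing crypt cells were higher. The fat-binding protein gene Fabp2 was 3.03-fold higher in set 1, while the mitotic gene Prc1 was 1.52-fold higher in set 2. Of the 11349 genes tested, 5196 were called (45.8%), with 3898 higher (34.3%) and 1298 lower (11.4%) in set 2. At least a 2-fold difference was seen in 13 of the genes called higher and in 116 of those called lower, so that the lower genes were fewer and their differences larger. At 1.5-fold these counts were 104 and 371. The median over all genes tested was 0.12. With trimmed-mean scaling the median was 0.03 and the calls were 2114 higher and 2017 lower. Quantile normalization gave 2349 and 1553, and an adjustment for GC content and length 1808 and 2099. Differences are therefore best read relative to the median of 0.12. The values of set 2 lay above those of set 1 without overlap in 4592 genes (40.5%) and below them in 1589 (14%). In bulk tissue, fewer cells of a type and less RNA per cell cannot be told apart.

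**Figure D2:**
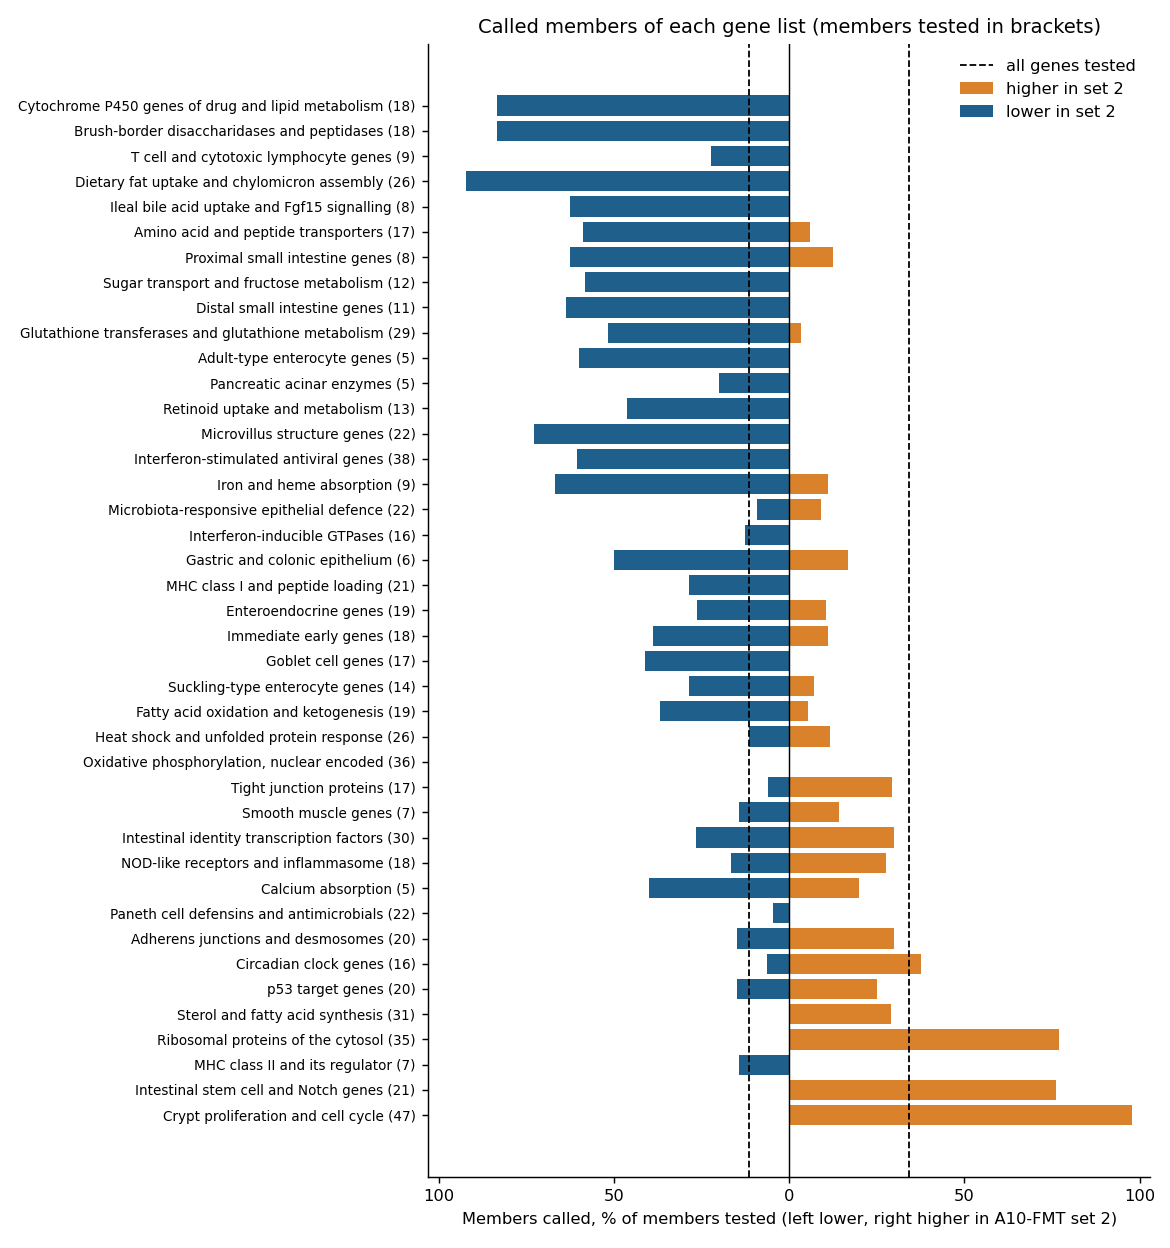
Percent of the tested members of each gene list (y axis) called higher or lower in A10-FMT set 2 than in set 1 (x axis), beside the same percent over all 11349 genes, 34.3% higher and 11.4% lower. The crypt and ribosomal lists have members called higher and none called lower, and the fat uptake, brush border and P450 lists have the opposite.

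Genes for the uptake of dietary fat and its assembly into chylomicrons, the particles that carry fat into lymph, were lower in set 2. All 26 listed genes were tested, 24 were called lower and 0 higher, against 11.4% and 34.3% of all genes, and the median was -0.61. Fabp2 (NCBI Gene 14079), which carries fatty acids in the enterocyte, was at 2508, 2446 and 2987 FPKM in set 1 and at 979, 809 and 835 in set 2. Every library of set 1 was thus far above every library of set 2, a log2 difference of -1.60 (SE 0.112, adjusted p = 3.14e-06). Apoa4, an apolipoprotein of chylomicrons, was at 1298, 1604 and 1743 FPKM in set 1 and at 724, 405 and 547 in set 2 (-1.50, adjusted p = 6.42e-05). Its levels did not overlap either. Apoc2, the cofactor of lipoprotein lipase, had the largest difference of the list (-1.65), followed beyond Fabp2 and Apoa4 by Apoa1 (-1.33). Fabp1 and Apoc3 were lower by a like amount (-1.23 and -1.22). Mttp, which loads lipid onto apolipoprotein B, was lower (-0.64), as was Apob itself (-0.46, and not called with all 23 libraries in the fit, adjusted p = 0.196). Plin2, a coat protein of lipid droplets, was not called (-0.09), and was called lower with trimmed-mean scaling (-0.19).

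The promoters of Fabp2 and Apoa4 are shown as examples of genes with a high level and a large difference. Apoa1 has both too and is not shown. The examples hold the letters marked below, which most promoters of the list do not. They are RefSeq sequences of GRCm38.p6 on the plus strand, at chr3:122894822-122895121 and chr9:46240594-46240893. Capitals mark CAAAGT on either strand, letters found in sites of the enterocyte factor HNF4.
Fabp2: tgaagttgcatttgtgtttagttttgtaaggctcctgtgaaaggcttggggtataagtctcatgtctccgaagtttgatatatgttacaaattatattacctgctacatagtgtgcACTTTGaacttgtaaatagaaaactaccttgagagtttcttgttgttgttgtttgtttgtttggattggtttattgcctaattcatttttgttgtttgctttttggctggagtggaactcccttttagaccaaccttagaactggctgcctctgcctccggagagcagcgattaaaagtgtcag
Apoa4: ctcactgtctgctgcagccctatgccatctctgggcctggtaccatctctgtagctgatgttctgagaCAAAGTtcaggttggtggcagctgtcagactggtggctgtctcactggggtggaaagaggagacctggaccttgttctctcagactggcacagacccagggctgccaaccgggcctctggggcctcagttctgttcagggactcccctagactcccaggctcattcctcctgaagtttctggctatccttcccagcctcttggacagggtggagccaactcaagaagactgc
CAAAGT was present in 7 of the 21 promoters of 20 fat uptake genes (33.3%) and in 7 of the 20 promoters of 14 brush-border genes (35%). It was present in 12% of the promoters of all genes tested and in 14.4% of all 32851 promoters. A gene with several promoters was counted once for each. A match is a description of these letters and not a binding site. The gene Hnf4a, for the factor itself, was at 240, 236 and 248 FPKM in set 1 and at 256, 271 and 260 in set 2, a small difference in the other direction (0.12, adjusted p = 0.0267) near the median of all genes. It was at 0.02 and not called with trimmed-mean scaling.

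The hydrolases of the brush border split peptides and sugars at the surface of the enterocyte. Of 18 tested genes (19 listed), 15 were called lower in set 2 and 0 higher, with a median of -0.84. Anpep, aminopeptidase N, was at 2076, 1927 and 2363 FPKM in set 1 and at 1263, 1089 and 1108 in set 2 (-0.88, adjusted p = 1.48e-05). The levels of the sets did not overlap. The low-level enteropeptidase gene Tmprss15, which activates trypsinogen, was at 3.53, 4.14 and 3.90 FPKM against 1.74, 0.88 and 0.63 (-1.26). Ggt1 (-1.11) and the trehalase gene Treh (-1.09) were lower as well. The genes Mep1a, Sis (sucrase-isomaltase) and Mgam (maltase-glucoamylase) were not called, at -0.38, -0.15 and 0.05. Sis was at 215, 194 and 206 FPKM in set 1 and at 156, 171 and 234 in set 2, which overlapped. The count of called hydrolases was 13 to 15 when any library was left out.

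The transporters that take up what these enzymes release were lower too. Among 17 tested amino acid and peptide transporters, 10 were called lower and 1 higher, with a median of -0.53. Slc6a19, the apical carrier of neutral amino acids, was at 112, 107 and 152 FPKM in set 1 and at 34.3, 40.8 and 38.0 in set 2 (-1.68, adjusted p = 9.54e-06). Slc15a1, the dipeptide carrier, was at 38.4, 37.1 and 39.7 FPKM against 18.9, 15.6 and 18.4 (-1.08). In both, every library of set 1 was above every library of set 2. Slc7a15 (-1.42) and the basolateral Slc7a7 (-0.82) completed the leading members. In the list of sugar transport and fructose metabolism 7 of 12 were called lower, with a median of -0.44, led by the gluconeogenic enzyme gene Pck1 (-1.30) and the Slc5a4b gene of a sugar carrier family (-1.12).

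Alkaline phosphatase of the brush border, an enzyme that dephosphorylates lipopolysaccharide, was lower in 2 of 3 tested genes. Alpi was at 470, 549 and 533 FPKM in set 1 and at 304, 249 and 267 in set 2 (-0.92). Akp3, the form of the proximal bowel, was at 110, 189 and 86.6 FPKM against 34.6, 24.04 and 19.7 (-2.22, adjusted p = 0.00251). S100g, the calcium-binding calbindin of enterocytes, was at 218, 360 and 209 FPKM in set 1 and at 72.6, 58.9 and 39.5 in set 2 (-2.18, adjusted p = 0.00114). Akp3 and S100g varied widely among the libraries of set 1 and did not overlap with set 2. Among 22 tested genes for the structure of the microvillus, 16 were called lower and 0 higher (median -0.31). Espn, the actin bundler espin, was at 92.4, 93.2 and 125 FPKM against 48.9, 39.1 and 45.6 (-1.19). Vil1, the gene of villin, was lower by less (-0.49).

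Cytochrome P450 enzymes and glutathione transferases modify drugs and toxins taken up with food. Of 35 listed P450 genes 18 were tested and 15 were called lower, with none higher and a median of -0.89. Cyp3a11 was at 18.8, 29.6 and 52.5 FPKM in set 1 and at 7.04, 4.62 and 6.27 in set 2 (-2.21, adjusted p = 0.000651). Cyp2b10 (-1.63), Cyp4b1 (-1.37) and Cyp2c65 (-1.31) followed. The gene with the highest level of the list, Cyp4f14, was lower by 1.86-fold (-0.90). In the glutathione list, 15 of 29 genes were called lower and 1 higher (median -0.41), led by Gsta1 at 59.1, 63.4 and 54.5 FPKM against 26.7, 18.7 and 17.3 (-1.48).

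The lower genes included members of both the proximal and the distal gene list, and the region sampled is not given in the labels. Among 8 tested genes of the proximal part 5 were called lower and 1 higher (median -0.51), and the lower calls were 2 without replicate 3 of set 2 and 3 without its replicate 2 or without replicate 1 or 2 of set 1. Among 11 genes of the distal part 7 were called lower and 0 higher (median -0.43), with 7 to 8 when any library was left out. Ada, an adenosine deaminase of proximal villi, was at 32.0, 56.8 and 71.4 FPKM in set 1 and at 19.7, 13.1 and 12.3 in set 2 (-1.72). The ileal gene Fabp6, whose product binds bile acids, was at 1215, 923 and 1055 FPKM against 389, 529 and 750 (-0.98, adjusted p = 0.0097). The apical bile acid carrier Slc10a2 was at 15.1, 6.56 and 13.2 FPKM against 2, 4.95 and 5.97 (-1.27). The libraries of set 1 were above those of set 2 in each of these genes, proximal and ileal alike. The bile acid list as a whole had 5 of 8 genes called lower. The iron and heme list had 6 of 9 called lower, led by the folate and heme carrier Slc46a1 (-1.15), and 1 higher. The retinoid list had 6 of 13 called lower, led by the retinol-binding protein gene Rbp2 (-1.11). The calcium list had 2 of 5 called lower, S100g among them, and 1 higher. Its lower count was 1 without replicate 1 of either set or replicate 3 of set 2, and its higher count was 2 without replicate 1 of set 1. Genes of fatty acid oxidation had 7 of 19 called lower and 1 higher, at a median of -0.10. None of the 36 nuclear genes of oxidative phosphorylation was called by limma (median -0.05), with 2 at an unadjusted p under 0.05. In this list 13 were called lower with trimmed-mean scaling and 7 with the GC and length adjustment.

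**Figure D3:**
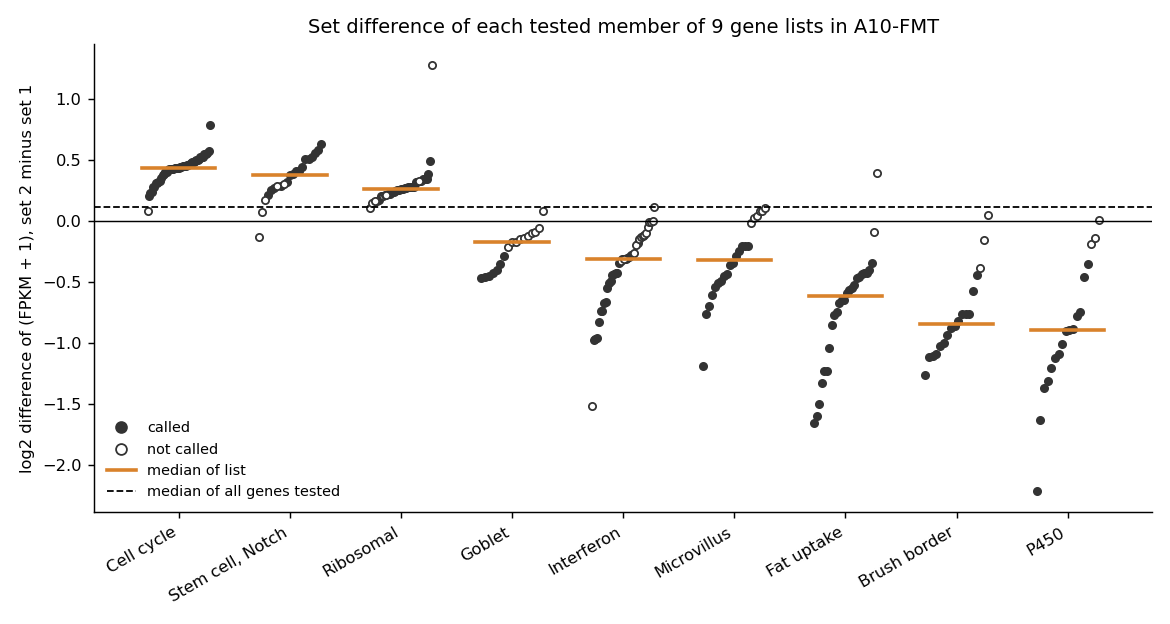
Log2 difference, set 2 minus set 1, on the log2(FPKM + 1) scale (y axis) of each tested member of 9 gene lists (x axis), with 1 point per gene, filled where called, and a bar at each list's median. Most members of the fat uptake list lie around its median of -0.61 and most of the cell cycle list around 0.44, on opposite sides of the median of all genes of 0.12.

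Genes of dividing crypt cells were higher in set 2. Of 48 listed cell cycle genes 47 were tested, 46 were called higher and 0 lower, against 34.3% of all genes, and the median was 0.44. Only Ccne1, the gene of cyclin E1, was not called (0.09). With trimmed-mean scaling and with the GC and length adjustment 41 were still called higher. Prc1 (NCBI Gene 233406), which bundles the microtubules of the late spindle, was at 18.9, 19.3 and 18.9 FPKM in set 1 and at 29.1, 30.6 and 27.5 in set 2 (0.58, SE 0.0705, adjusted p = 5.73e-05). Kif11, the motor that separates the spindle poles, was at 12.5, 12.2 and 10.9 FPKM against 17.9, 18.8 and 17.1 (0.56). The sets did not overlap in these genes, and the differences were small beside those of the enterocyte genes. Hmgb2, a chromatin protein of dividing cells, led the list at 101, 97.1 and 72.9 FPKM against 182, 131 and 156 (0.79). Pcna, the sliding clamp of DNA replication, and Ube2c, which acts in mitotic exit, had the highest FPKM of the list and were higher by 0.32 and 0.43 on the log2 scale. Mki67 and Top2a, often used to mark proliferation and named here after their values were seen, were higher by 0.53 and 0.55.

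The promoters of Prc1 and Kif11 are given because the list shares letters that the choice of its genes did not use. Both lie on the plus strand of GRCm38.p6 and come from RefSeq, at chr7:80294201-80294500 (the first of its promoters in the table) and chr19:37376132-37376431. Capitals mark CCAAT, the box bound by NF-Y, and TTTGAA, the letters of the cell cycle homology region, on either strand.
Prc1: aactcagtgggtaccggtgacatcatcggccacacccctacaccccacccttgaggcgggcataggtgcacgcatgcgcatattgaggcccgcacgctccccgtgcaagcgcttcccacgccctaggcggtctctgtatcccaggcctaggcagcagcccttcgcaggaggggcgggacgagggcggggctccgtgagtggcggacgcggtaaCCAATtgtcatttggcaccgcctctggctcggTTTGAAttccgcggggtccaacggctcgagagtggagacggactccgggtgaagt
Kif11: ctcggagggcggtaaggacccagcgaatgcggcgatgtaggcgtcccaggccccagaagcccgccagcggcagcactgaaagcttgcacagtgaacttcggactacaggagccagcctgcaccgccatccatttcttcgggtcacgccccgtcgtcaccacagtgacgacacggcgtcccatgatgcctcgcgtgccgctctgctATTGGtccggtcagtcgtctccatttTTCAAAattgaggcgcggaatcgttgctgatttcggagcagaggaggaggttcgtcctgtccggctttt
CCAAT was present in 34 of the 42 promoters of 39 cell cycle genes (81%), and in 38.4% of the promoters of all genes tested. TTTGAA was present in 24 of the 42 (57.1%), and in 12.2%. Over all 32851 promoters the shares were 37.4% and 17.9%. These matches describe the gene list and do not show what sets its level in these libraries.

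Stem cell and Notch genes were also higher, with 16 of 21 tested called higher, 0 lower and a median of 0.38. Olfm4, a secreted protein of crypt base cells, was at 347, 336 and 304 FPKM in set 1 and at 515, 512 and 456 in set 2 (0.59, adjusted p = 0.000668). Smoc2 (0.56), Sox9 (0.53) and Slc12a2 (0.63), all found at the crypt base, were higher as well. Lgr5, the marker receptor of the stem cells, was at 3.69, 2.61 and 2.76 FPKM against 3.73, 4.20 and 3.73. The lowest values of set 2 were barely above the highest of set 1, and Lgr5 was not called (0.29, adjusted p = 0.0648, and 0.41 and 0.018 without replicate 1 of set 1). Scaling lowered the count for the list, to 11 called higher with trimmed-mean scaling and 12 higher and 1 lower with the GC and length adjustment.

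The listed genes for ribosomal proteins moved the same way by less. The list does not hold Rpl26, which was called lower in set 2 (-5.72) and is given below. Of 35 tested 27 were called higher and 0 lower, at a median of 0.27. Rpl10a was at 648, 420 and 662 FPKM in set 1 and at 707, 786 and 908 in set 2 (0.49, adjusted p = 0.0176, and 0.39 and 0.0574 with trimmed-mean scaling). The count of the list was 12 with that scaling, and reads of ribosomal protein genes are shared with many pseudogene copies. The synthesis of sterols and fatty acids had 9 of 31 genes called higher and 0 lower, under the 34.3% of all genes. Without replicate 3 of set 1 there were 3, without replicate 2 or 3 of set 2 there were 4 and 5, and with trimmed-mean scaling there were 0.

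**Figure D4:**
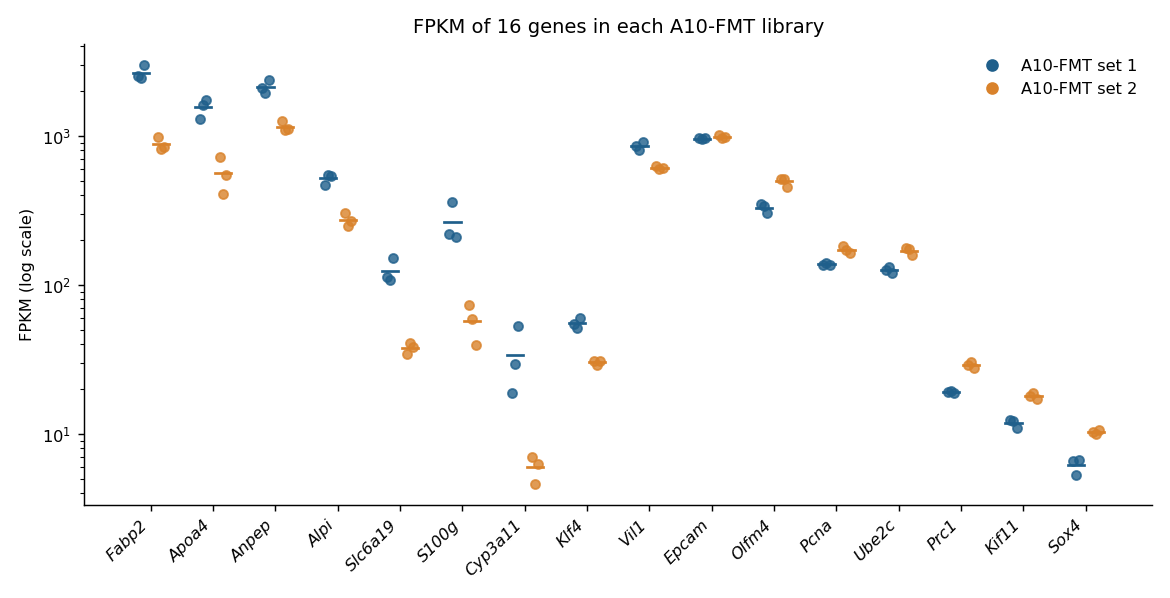
FPKM on a log axis (y axis) of leading genes in each of the 6 A10-FMT libraries, with 1 point per library, set 1 beside set 2, and a line at each set's mean. Fabp2 falls from between 2446 and 2987 to between 809 and 979 FPKM, and Prc1 goes from between 18.9 and 19.3 to between 27.5 and 30.6.

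Transcription factors of the intestine were split, with 9 of 30 called higher and 8 lower, against 34.3% and 11.4% of all genes. With trimmed-mean scaling 5 were called higher and 9 lower. Klf4, a factor of post-mitotic epithelial cells, was at 54.5, 51.4 and 59.7 FPKM in set 1 and at 31.0, 29.0 and 30.8 in set 2 (-0.85, adjusted p = 1.91e-05). Creb3l3, which drives apolipoprotein genes, and Maf, a factor of villus enterocytes, were lower too (-0.89 and -0.56). Sox4, a factor of progenitors, was at 6.56, 5.29 and 6.72 FPKM against 10.3, 10 and 10.6 (0.65, adjusted p = 0.000498). The factors given here are only some of the 17 called and do not describe the list, and Hnf4a differed little.

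Among 17 goblet cell genes 7 were called lower and 0 higher at a median of -0.17, and 4 without replicate 3 of set 1. Muc2, the mucin of the mucus layer, was at 351, 386 and 444 FPKM in set 1 and at 285, 267 and 299 in set 2 (-0.47). Zg16, a lectin of mucus, was lower by a like amount (-0.45), and Fcgbp, a mucus protein of high level, was not called (-0.08). Of 19 enteroendocrine genes 5 were called lower (3 without replicate 3 of set 2) and 2 higher. Sct, the gene of secretin, and the granule gene Chga were lower (-0.67 and -0.28), and Neurog3, the factor of endocrine progenitors, was higher (0.44). Of 22 Paneth cell genes 1 was called lower (Pla2g2f, -0.32, and 0 without replicate 2 of set 1 or replicate 2 or 3 of set 2) and 0 higher, and Defa24 was level between the sets (0.02, adjusted p = 0.943). Defensin genes are near-identical copies among which reads may be divided. Defa32 was listed at 0 FPKM in the 3 libraries of set 1 and at 959, 93.8 and 7.01 in set 2, a spread over which no fold is given.

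Of 38 interferon-stimulated antiviral genes tested, 23 were called lower in set 2 and 0 higher, against 11.4% and 34.3% of all genes. The median was -0.31. Oasl1, an oligoadenylate synthase-like protein, was at 111, 130 and 131 FPKM in set 1 and at 79.8, 55.7 and 56.1 in set 2 (-0.96, adjusted p = 6.42e-05). Ifit1, which binds viral RNA, was at 69.6, 75.2 and 72.1 FPKM against 45.7, 37.8 and 38.1 (-0.82). The sets did not overlap in either gene. Rsad2, the antiviral enzyme viperin, was lower by a like amount (-0.97). Stat2 and Irf9, which carry the interferon signal, were not called (-0.05 and -0.01), and Irf9 was called lower with the GC and length adjustment (-0.13). Of 16 interferon-inducible GTPases 2 were called lower, near the share over all genes. With trimmed-mean scaling 6 were called lower, where 2017 of all 11349 genes were. In the MHC class I list, whose products present peptides to cytotoxic T cells, 6 of 21 were called lower and 0 higher. H2-K1 was at 376, 429 and 257 FPKM against 200, 167 and 194 (-0.89), and B2m, the shared light chain, was lower by less (-0.36). MHC class I genes are alike in sequence and differ between strains, so that their reads are uncertain. Of 7 MHC class II genes 1 was called lower, also near the share over all genes, and Cd74 was not called (0.13).

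Genes of T cells and cytotoxic lymphocytes were examined as markers of other cells in the tissue. Of 30 listed genes 26 were in the table and 9 were tested, 2 were called lower, and 6 did not overlap, all lower in set 2, against 11.4% and 14% of all genes. Without any 1 of replicates 2 and 3 of set 1 and the 3 libraries of set 2 the count of called genes was 0. Their summed level was 84.1 to 158 FPKM in set 1 and 54.6 to 67.9 in set 2. Gzmb, the granzyme of cytotoxic cells, was at 20.6, 30.7 and 30.9 FPKM against 11.98, 11.7 and 10.2 (-1.19, adjusted p = 0.0294, and 0.0515 to 0.0852 without any of those 5 libraries), and Gzma was not called (-1.14, adjusted p = 0.0533). Gzma was called lower without replicate 1 of set 1 (adjusted p = 0.0304) and under 6 other alternatives, among them the replicate block (0.0214) and trimmed-mean scaling (0.0457). Among the other cell types, the summed level of fibroblast genes was 42.9 to 49.9 FPKM in set 1 and 29.0 to 35.2 in set 2, that of myeloid genes 57.7 to 66.4 and 72.6 to 79.6, that of B and plasma cell genes 133 to 146 and 138 to 141, and that of smooth muscle genes 286 to 295 and 293 to 300. Of the listed genes, 2 of 24 were tested for fibroblasts and 2 of 20 for myeloid cells. For B and plasma cells 4 of 29 were tested, and for smooth muscle 7 of 20. Col1a1 was at 0.01 to 0.14 FPKM in the 6 libraries, Adgre1 at 0 to 0.02, Jchain at 0.09 to 0.52 and Acta2 at 0 to 0.09. The sums thus rest on few members and do not measure these cell types. The part of these cells in the differences above was not tested.

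The genes of junction proteins, and of the proteins that the study measured by antibody, differed in both directions. Of 17 tight junction genes 5 were called higher and 1 lower, near the shares over all genes. Tjp1, the scaffold ZO-1, was at 17.96, 14.7 and 14.7 FPKM in set 1 and at 20.2, 21.98 and 22.2 in set 2 (0.43, adjusted p = 0.00186), while Cldn4, a sealing claudin, was at 15.2, 15.8 and 21.3 FPKM against 10.2, 6.44 and 6.63 (-1.09). They differed in opposite directions without overlap. Of 20 genes of adherens junctions and desmosomes 6 were called higher and 3 lower, also near the shares over all genes (34.3% and 11.4%). Cdh1, E-cadherin, was at 228, 208 and 215 FPKM against 254, 257 and 244 (0.21), and was not called with trimmed-mean scaling (0.11, adjusted p = 0.0844). The medians of both junction lists, 0.03 and 0.07, turned to -0.07 and -0.03 with that scaling. Its calls were 2 higher and 3 lower in the tight junction list, and 4 higher and 7 lower in the other. Of the 12 genes of proteins measured by antibody 10 were tested, of which Sox4, Tjp1, Klf7, Cdh1 and Ocln were called higher (3 of these without replicate 2 of set 1 or replicate 3 of set 2) and Vil1 lower. Klf7, a Krüppel-like factor, was higher by 0.36 (0.14 with the GC and length adjustment, adjusted p = 0.269). Ocln, the gene of occludin, was higher by 0.16 (adjusted p = 0.0422) and at -0.01 with the GC and length adjustment. Its call was also lost with the replicate block (adjusted p = 0.0571), trimmed-mean scaling (0.06, adjusted p = 0.442), quantile normalization (adjusted p = 0.138) and all 23 libraries (adjusted p = 0.18).

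The largest single differences, beyond those given, included further genes of surface epithelium. Aqp3, a water and glycerol channel, was at 14.6, 15.5 and 22.5 FPKM in set 1 and at 3.87, 2.66 and 3.20 in set 2 (-2.11, adjusted p = 5.22e-05). Areg, a growth factor of the EGF family, was at 10.4, 9.18 and 12.8 FPKM against 2.47, 2.31 and 1.78 (-1.88). They were 5.40- and 4.93-fold higher in set 1, without overlap. Clca4a (-1.72), the mitochondrial proline pathway enzyme gene Aldh4a1 (-1.96) and the cornified-envelope gene Sprr2a3 (-1.69) were in the same class. Among the higher genes, Nox1, a superoxide-producing oxidase of epithelium, was at 4.99, 3.71 and 2.75 FPKM against 7.41, 8.11 and 7.06 (0.85). The collagen receptor subunit Itga2 (0.84), the adhesion gene Ceacam10 (1.12) and Ccl28, a chemokine for antibody-secreting cells (0.78), were higher as well. Pigr, which carries the antibodies across the epithelium, was higher by 0.26 (0.15 with trimmed-mean scaling, adjusted p = 0.0998).

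Styk1, a kinase-like membrane protein, was at 4.13, 3.51 and 3.86 FPKM in set 1 and at 27.5, 12.5 and 12.7 in set 2 (1.85, adjusted p = 0.000803). Its means also went from 3.95 to 16.9 FPKM in Con-FMT and from 5.85 to 13.8 in A100-FMT. Rpl26, a ribosomal protein gene with many near-identical copies, was at 236, 200 and 361 FPKM against 3.39, 3.89 and 4.52 (-5.72, adjusted p = 0.00369), and its levels varied widely within other groups. In Con-FMT set 2 it was at 497, 269 and 4.5 FPKM, so that a library of Con-FMT lay at the level of A10-FMT set 2. It was not in the list of ribosomal protein genes, went against those called there, and is uncertain for its copies.

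The same codes divide the other FMT groups, which shows whether a set difference was shared. In Con-FMT, limma called 0 genes between the sets (0%, with 1082 at an unadjusted p under 0.05), and in A100-FMT 363 (3.2%), 230 higher and 133 lower. The set difference of A10-FMT was greater or smaller than that of Con-FMT in 3960 genes (34.9%) by the test of the interaction, 2860 in the upward and 1100 in the downward direction, and than that of A100-FMT in 1230 (10.8%), 828 and 402. Both tests use the same A10-FMT libraries. The second count depended on single libraries: it was 467 without replicate 2 of set 2, 717 without its replicate 3, and 782 and 726 without replicates 2 and 3 of set 1. The count for A100-FMT itself was 0 without replicate 1 or 2 of its set 1 or replicate 1 of its set 2, 9 without replicate 3 and 156 without replicate 2 of set 2, and 221 without replicate 3 of set 1.

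Enterocyte genes were among those with a called interaction. Compared with Con-FMT, 21 of the 26 fat uptake genes, 14 of 18 brush-border genes and 12 of 18 P450 genes had a more negative set difference, and compared with A100-FMT 15, 11 and 11. Over all 11349 genes the more negative ones were 1100 and 402. Mean Fabp2 was 2647 ± 296 FPKM (SD, n = 3) in A10-FMT set 1 and 874 ± 91.5 in set 2. It was 1245 and 1517 in Con-FMT and 1737 and 1423 in A100-FMT. The highest and the lowest of the 6 group means were thus both of A10-FMT. The set difference of A10-FMT minus that of Con-FMT was -1.88 on the log2 scale (adjusted p = 3.84e-05), and minus that of A100-FMT -1.31 (adjusted p = 0.00352). For Anpep the means were 2122 and 1153 FPKM in A10-FMT, 1535 and 1692 in Con-FMT and 1611 and 1304 in A100-FMT, and the interactions -1.01 and -0.57.

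Cell cycle genes gave 43 of 47 with a more positive set difference than in Con-FMT and 9 of 47 than in A100-FMT, in which 14 of them were called higher in set 2. Over all 11349 genes these counts were 2860, 828 and 230. Mean Prc1 was 19.1 and 29.0 FPKM in A10-FMT, 25.4 and 26.2 in Con-FMT and 24.3 and 28.5 in A100-FMT, with interactions of 0.54 and 0.36 (adjusted p = 0.0014 and 0.0338). The lowest mean was that of A10-FMT set 1 and the highest that of its set 2, close to A100-FMT set 2. The stem cell list gave 13 and 7 of 21, and the ribosomal list 18 and 1 of 35, the last under the share over all genes. Of the ribosomal list 7 were called higher within A100-FMT. Among interferon-stimulated antiviral genes 17 of 38 were more negative than in Con-FMT. Compared with A100-FMT, 2 were more negative and 3 more positive, near the 10.8% of all genes called in either direction. Within A100-FMT itself 16 were called lower in set 2, against 3.2% of all genes called in either direction. Calls within A100-FMT depended on single libraries, as given above. A missing call does not show that the set differences were equal.

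**Figure D5:**
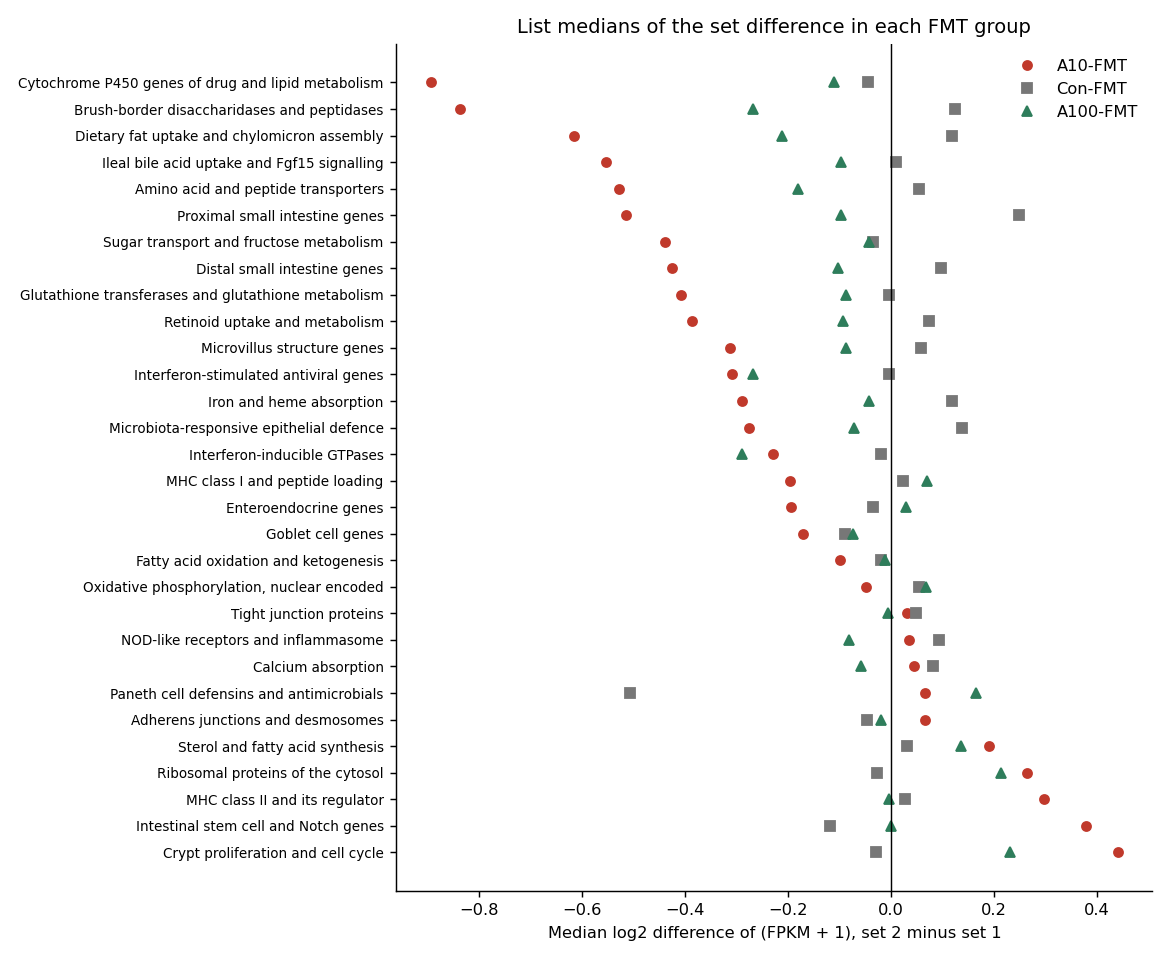
Median log2 difference, set 2 minus set 1, of the members of each gene list (y axis) in Con-FMT, A10-FMT and A100-FMT (x axis, log2(FPKM + 1) scale), with 1 symbol per group. For fat uptake genes the A10-FMT median lies at -0.61, with Con-FMT at 0.12 and A100-FMT at -0.21, and for cell cycle genes at 0.44, with -0.03 and 0.23.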

How the data were processed

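Total RNA had been isolated with TRIzol and sequenced on an Illumina HiSeq, and the authors deposited FPKM values with 2 decimals for 19215 entries (build mm10, per the submitters' processing notes). A symbol was found for 17736 of 17842 NCBI Gene numbers. Of 24 value columns 1, of per-sample values, was not used. The study's methods state RPKM and DEGseq, a test for read counts, which these values do not allow. The depth per library is unknown, so no counting intervals are given.

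Values were analysed as log2(FPKM + 1) with R 4.3.3 and limma 3.58.1, with 1 mean per group over 18 libraries, contrasts, eBayes with trend, and two-sided p-values adjusted by Benjamini-Hochberg over 11349 genes of mean 1 FPKM or more (threshold 0.05). Differences between set differences were tested as interactions. Python 3.11.15, numpy 2.4.6, pandas 2.3.3 and matplotlib 3.10.9 prepared the tables and figures. Labels separate the samples without naming animals. GENCODE M21 (GRCm38) gave the GC content and length of 10535 of the tested genes (92.8%), and RefSeq the promoters.

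The members and gene lists were chosen with earlier results of these data known, and lists are described by counts and medians without a test of the list. Genes named are the 12 largest and 12 smallest differences among called genes with a symbol and no overlap, the 4 called members of each list with the largest difference and the 2 with the highest FPKM, the genes of proteins measured by antibody, and the 3 extremes of each interaction in both directions. Apob, Apoc3, Ccne1, Cdkn1a, Epcam, Fabp1, Fcgbp, Irf9, Jun, Lgr5, Mep1a, Mgam, Mki67, Mttp, Per1, Per2, Plin2, Sis, Stat2 and Top2a lie outside this rule and were chosen after their values were seen. The same holds for Acta2, Adgre1, Col1a1 and Jchain, which were not tested.

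The fit was tested on simulated data for A10-FMT set 2 vs set 1, with 200 changed genes among 11349 in each of 5 simulations. It called 93.4% of genes changed by 1 on the log2 scale, 76.8% of those changed by 0.5 and 0.0934% of the unchanged genes. In the deposited values 5196 genes were called and the median difference was 0.12. The rate of calls with that many changed genes, or with a shift of most genes, was not tested.

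Alternatives were a pseudocount of 0.1, every gene above 0, a mean of 5 FPKM or more, scaling by trimmed means or quantiles, array quality weights, all 23 libraries or the 6 alone, a replicate block, eBayes without trend but robust, the GC and length adjustment, and leaving out each FMT library. Libraries of Con-FMT and A100-FMT were left out only for the set difference of their own group. For the interactions, lists and named genes only A10-FMT libraries were left out. The counts of Con-FMT and A100-FMT and of list members under the alternatives were added after the data were seen. Some genes that the rule names are not reported here.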

Additional observations from a re-analysis of the deposited data

Results flagged for a closer look

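The set difference of A10-FMT differed from that of Con-FMT in 3960 genes and from that of A100-FMT in 1230, by the test of the interaction in limma. Named by rule are the extremes among called genes. Against Con-FMT, the interaction was -4.21 on the log2 scale for S100g (adjusted p = 0.000306), -3.60 for Akp3 (adjusted p = 0.00182) and -3.00 for the hemoglobin gene Hba-a1 (adjusted p = 0.0234). Hba-a1 was not called without replicate 3 of set 1 or replicate 2 of set 2 (adjusted p = 0.0609 and 0.0583). Upward it was 1.97 for Prex2, 2.02 for Haspin, a kinase of mitotic chromatin, and 2.97 for B3gnt6, a glycosyltransferase of mucin chains. B3gnt6 was not called without any 1 of the 5 A10-FMT libraries other than replicate 1 of set 2 (adjusted p = 0.0511 to 0.0867). The values of Con-FMT also enter these interactions. There B3gnt6 was at 20.9, 4.88 and 1.06 FPKM in set 1 and at 1, 1.26 and 0.97 in set 2. Haspin was at 1.89 to 1.99 FPKM against 0.14 to 0.32, and Prex2 at 1.23 to 2.23 against 0.03 to 0.94. Hba-a1 was at 0.6 to 1.91 FPKM against 32.4, 4.37 and 5.05. No Con-FMT library was left out for these calls. Between the A10-FMT sets themselves Haspin and B3gnt6 were not called. Prex2 was called there by limma (1.08, adjusted p = 0.0415). It lost that call without any 1 of the 5 A10-FMT libraries other than replicate 1 of set 1 (adjusted p = 0.0558 to 0.16).

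S100g and Akp3 fell from set 1 to set 2 in A10-FMT, while their means in Con-FMT were 28.8 and 121 FPKM for S100g, and 22.1 and 59.7 for Akp3, in set 1 and set 2. The set difference within Con-FMT was called for neither gene (adjusted p = 0.257 and 0.395).

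Against A100-FMT, the interaction was -2.73 for Gal3st2, a sulfotransferase of mucin glycans, -2.41 for S100g (adjusted p = 0.0245) and -2.35 for Akp3 (adjusted p = 0.044). Upward it was 1.12 for Ceacam1, 1.16 for Nox1 and 1.26 for Ceacam10. Each of these calls was lost without some library: Gal3st2 without any replicate of set 1 (adjusted p = 0.0579 to 0.0845), S100g without replicate 2 of either set or replicate 3 of set 2 (0.0537 to 0.0575), and Akp3 without any library but replicate 1 of set 2 (0.0526 to 0.0971). Ceacam1 lost it without replicate 3 of either set or replicate 1 of set 2 (adjusted p = 0.0535 to 0.0665), Nox1 without replicate 2 of set 2 (0.0537), and Ceacam10 without replicate 2 or 3 of either set (0.0537 to 0.06). The Ceacam genes are alike in sequence, and Hba-a1 has a near-identical copy, so that their reads may be divided.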

How the results depend on the processing

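The 5196 genes called between the A10-FMT sets became 3450 with all 23 libraries in the fit and 4353 with the 6 A10-FMT libraries alone. They became 3963 to 4865 when any A10-FMT library was left out. The 3960 genes whose set difference differed from that of Con-FMT became 2354 with all 23 libraries, and 3117 to 3857 without single A10-FMT libraries. The 1230 genes that differed from A100-FMT became 709 with quantile normalization, 397 with all 23 libraries, and 467 to 1204 without single A10-FMT libraries. No Con-FMT or A100-FMT library was left out for either count. The count of 0 for Con-FMT was 1 with all 23 libraries and with robust moderation without trend, and 0 to 1 without single libraries. The count of 363 for A100-FMT was 127 with all genes above 0, 210 with trimmed-mean scaling, 950 with array quality weights, 0 with all 23 libraries, 185 with robust moderation, and 0 to 221 without single libraries. The cause was not tested, except that fits without a library hold fewer samples. The share of calls that were higher in set 2 was 75% as deposited, 51.2% with trimmed-mean scaling, 60.2% with quantile normalization and 46.3% with the GC and length adjustment. Of 42 lists with at least 5 tested genes, 35 had a median below that of all genes, 27 to 35 over the alternatives and 33 to 35 without single libraries.

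Of 120 named genes 97 were called, 80 of them under every alternative, and 17 lost the call under at least 1. The direction of Ocln turned with the GC and length adjustment (-0.008). Beside the genes given above, Fasn, Insig1, Klf7, Rpl10a, Hnf4a, Ocln, Pigr, Pla2g2f, Trpm5 and Defa32 lost the call without 1 or more libraries, with adjusted p-values of 0.0509 to 0.163. For Klf7 and Rpl10a these were replicate 2 of set 1 and replicate 3 of set 2, for Fasn replicate 3 of set 1 and replicate 2 of set 2, for Pigr replicate 3 of set 1, and for Insig1 replicate 3 of either set and replicate 2 of set 2. For Hnf4a these were replicates 1 and 2 of set 1 and 2 and 3 of set 2, for Pla2g2f replicate 2 of either set and 3 of set 2, for Trpm5 replicates 2 and 3 of set 1 and 3 of set 2, and for Ocln and Defa32 each library but replicate 1 of set 1 and replicate 3 of set 2, respectively.

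The replicate numbers of the titles are not said to pair the samples, and the deviations of same-numbered libraries from their group means correlated at -0.118, -0.02 and 0.11. With a replicate block the counts were 5207, 3951, 1244 and, for A100-FMT, 301. Depth is unknown, so no limit can be given for a gene at 0 FPKM.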

Other observations

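Further gene lists were counted between the A10-FMT sets, where 34.3% of all genes were called higher in set 2 and 11.4% lower. Immediate early genes, which respond to stimulation or handling within minutes, had 7 of 18 members called lower in set 2 and 2 higher. Fos was at 16.8, 15.1 and 22.2 FPKM in set 1 and at 9.84, 10.3 and 10.2 in set 2 (-0.76 on the log2 scale, adjusted p = 0.000528), and Atf3 was lower too (-0.79), while Jun was not called (0.07). Levels of Fos did not overlap between the sets. Of 26 heat shock and unfolded protein response genes 3 were called lower and 3 higher. Trib3, a pseudokinase of amino acid stress, was lower (-0.76), and Hspd1, a mitochondrial chaperonin, was higher (0.30, and not called with all 23 libraries in the fit, adjusted p = 0.0986). With trimmed-mean scaling 10 of this list were called lower and 1 higher, and the higher count was 1 without replicate 1 of either set.

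Of 16 circadian clock genes 6 were called higher and 1 lower, and 3 were higher without replicate 3 of set 1. The highest difference was that of Wee1, a clock-controlled kinase that holds cells before mitosis, at 6.30, 6.77 and 5.64 FPKM in set 1 and at 11.3, 10.8 and 10.1 in set 2 (0.70). The period genes Per1 and Per2 were not called (0.21 and 0.10). Of 20 p53 target genes 5 were called higher and 3 lower, and 3 were higher without replicate 2 or 3 of set 2. Trp53 itself was higher (0.43), its target Cdkn1a was not called (-0.40, and called at -0.50 with trimmed-mean scaling), and the higher ones included Ckap2 (0.55) and Gtse1 (0.41), which are also genes of mitosis.

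Among 18 NOD-like receptor and inflammasome genes 5 were called higher, 3 without replicate 3 of set 2, and 3 lower. Nod1, a sensor of bacterial peptidoglycan, was higher (0.38), and the pore-forming Gsdmd was lower (-0.83). Among 22 genes of microbiota-responsive epithelial defence 2 were called in each direction, with 1 lower without replicate 2 of either set or replicate 1 of set 2 and 1 higher without replicate 3 of set 1. The antimicrobial lectin genes Reg3b and Reg3g were not called (-0.47, adjusted p = 0.12, and -0.50, adjusted p = 0.0678), and Reg3g was called lower with trimmed-mean scaling (-0.60). The sterol genes called higher included Insig1 (0.54), which restrains sterol synthesis, and Fasn (0.33), the fatty acid synthase. With trimmed-mean scaling both were not called (adjusted p = 0.0692 and 0.087). Tuft cell genes, at 3 tested, had 2 called lower, led by Trpm5 (-0.55), and 0 without replicate 2 or 3 of set 1 or replicate 3 of set 2.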
